A study of Mus musculus with 13 samples.

Results

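The 2′-5′-oligoadenylate synthetase (OAS) genes were read here in mouse melanoma cells through the 8 members Oas1a, Oas1b, Oas1c, Oas1g, Oas2, Oas3, Oasl1 and Oasl2. They were taken from the gene count table by their Ensembl identifiers, which carry these symbols in GENCODE for the mouse genome GRCm38, and they make up 8 of 54532 genes. Counts were scaled to a library total of 1000000 (counts per 1000000, CPM), and all 8 averaged 1 CPM or more over the libraries read, and each had a count in every one of them. RNA came from Yumm1.7, a mouse melanoma line, labelled WT for genotype. The cells received DMSO, the ADAR1 inhibitor ADAR1i-124 (10 µM for 12 h), the DNA demethylating nucleoside 5-AZA-CdR (decitabine, 1 µM for 72 h) or both drugs in sequence, 5-AZA-CdR first. The labels give no dose of ADAR1i-124 for the combination. In the study's description it is 10 µM for 12 h for the precipitates, with 1 µM as a further dose in total RNA. RNA was sequenced as total RNA and after digestion with RNase I and DNase and precipitation with J2, an antibody against double-stranded RNA, or Z22, an antibody against Z-form RNA. Libraries of the same treatment are called a pool below, although no label says that they came from the same RNA. A precipitation with IgG served as the control, and the treatment of its cells was not stated. There was 1 library for each condition, so a difference between treatments has no replicate behind it and was not tested, and all intervals below cover counting error only. Of 13 libraries, 12 were read. Total RNA of the combination was left out, since its counts follow the other strand.

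OAS enzymes bind double-stranded RNA and join ATP into short 2′-5′-linked oligoadenylates (2-5A). These molecules serve as second messengers of the antiviral response. The genes are induced by type I interferon through transcription factors that bind interferon-stimulated response elements near their starts. In the mouse, OAS1A, OAS1G, OAS2 and OAS3 are synthetases, OASL2 keeps synthetase activity and carries ubiquitin-like domains, OASL1 lacks the activity and limits translation of Irf7, and OAS1B is known for resistance to flaviviruses. ADAR1 edits adenosines in double-stranded RNA and is known for keeping cellular RNA from activating these sensors.

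All 8 genes lie on chromosome 5 of GRCm38 in 2 groups. Oasl2 (ENSMUSG00000029561, 114896936 to 114912234) and Oasl1 (ENSMUSG00000041827, 114923240 to 114937915) are on the forward strand. Oas2 (ENSMUSG00000032690, 120730333 to 120749853) and Oas3 (ENSMUSG00000032661, 120753098 to 120777661) are on the reverse strand, followed by Oas1c (ENSMUSG00000001166, 120800194 to 120812514, reverse), Oas1b (ENSMUSG00000029605, 120812635 to 120824163, forward), Oas1g (ENSMUSG00000066861, 120876142 to 120887613, reverse) and Oas1a (ENSMUSG00000052776, 120896256 to 120907521, reverse). The annotation lists Oas1b as a polymorphic pseudogene and the other 7 as protein-coding. Oas1a and Oas1g share sequence: 730 of the 1786 windows of 100 bases along the exons of Oas1a (40.9%) also occur in Oas1g, where they make up 31.25% of its windows, so reads could be split between this pair, and the other 6 members shared no such window with one another.

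Promoter sequence is shown because the members are classical interferon targets and were lower together in total RNA and J2 with ADAR1i-124. The bases before the start of transcription come from RefSeq on GRCm38, where 6 of the 8 members had a window of 250 bases before to 50 after the start, and Oas1b and Oas2 had none. The window of Oas1c reaches the start of Oas1b, since these genes point away from each other with 120 bases between their starts, so the same stretch is printed on both strands. Capitals mark matches to the interferon response core, GAAA repeated after any 2 bases, on either strand, and positions are counted backwards from the first transcribed base.
Oas1a (chr5:120907526-120907605, reverse): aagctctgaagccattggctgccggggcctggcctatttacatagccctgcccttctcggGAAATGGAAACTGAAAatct
Oas1g (chr5:120887614-120887693, reverse): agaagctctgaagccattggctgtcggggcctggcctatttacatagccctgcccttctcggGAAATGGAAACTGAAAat
Oas1b (chr5:120812515-120812634, forward): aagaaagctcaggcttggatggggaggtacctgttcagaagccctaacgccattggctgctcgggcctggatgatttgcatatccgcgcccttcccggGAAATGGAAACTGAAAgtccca
Oas1c (chr5:120812515-120812634, reverse): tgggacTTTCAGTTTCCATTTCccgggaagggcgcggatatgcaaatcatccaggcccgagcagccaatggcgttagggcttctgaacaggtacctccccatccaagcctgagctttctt
Oas3 (chr5:120777660-120777769, reverse): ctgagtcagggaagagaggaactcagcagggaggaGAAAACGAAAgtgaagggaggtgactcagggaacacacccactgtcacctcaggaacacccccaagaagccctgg

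Oas1a, Oas1g and the stretch shared by Oas1b and Oas1c hold overlapping cores that together hold GAAA 3 times, each 2 bases apart, a longer match found in 38 of 32851 promoter windows (0.116%), whereas the core alone occurred in 3.44%. The longer match ends 5 bases before the start of Oas1a, 3 before that of Oas1g and 7 before that of Oas1b, where it begins at -22. From the start of Oas1c it lies at -114 to -99 and on the opposite strand. Oas3 has a single core at -75 to -66. The windows of Oasl1 and Oasl2 hold no match to these letters, which says nothing about other forms of the element. A match to TTCNNNGAA, a motif of interferon-responsive promoters present in 8.30% of windows, was found at -98 in Oas1a alone among the 6 members with a window. Over the whole window, Oas1a and Oas1g were 85.3% identical, against 45.9% to 51.6% for every other pair.

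The 12 libraries held 8167960 to 34571822 counts, so that 3 counts correspond to 0.0868 to 0.367 CPM. A single ribosomal-RNA-like gene, Gm42418, took 34.9% of the counts in the Z22 DMSO library and 10.6% to 18.9% in the other precipitated libraries, and the median gene was 0.79 lower on the log2 scale in it than in the J2 DMSO library. Of 8 melanocyte genes, Mitf was read at 9.68 to 33.1 CPM, Pmel stayed at or below 0.625 CPM, and Sox10, Mlana, Tyr, Tyrp1, Dct and Gpr143 had at most 2 counts in a library, so the pigment genes that define melanocytes are nearly absent. Among 8 leukocyte and 4 endothelial markers, Cd68 (6.46 to 75.4 CPM) and Cdh5 (2.68 to 81.1 CPM) were read and each of the other 10 stayed at or below 2.30 CPM. In bulk RNA, fewer cells of a type and less RNA per cell cannot be told apart.

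**Figure D1:**
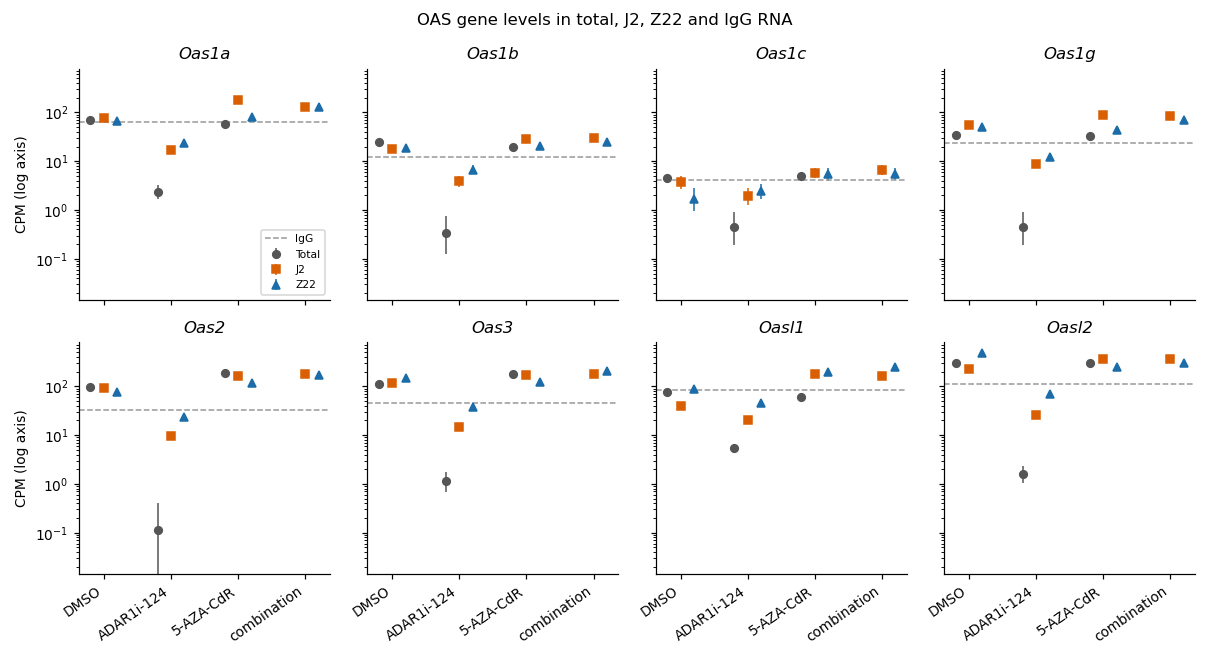
CPM on a log axis for each of the 8 OAS genes by treatment, in total RNA (circles), J2 (squares) and Z22 (triangles), with 95% exact Poisson counting intervals and the IgG library as a dashed line. The total RNA library of ADAR1i-124 is the lowest point for every gene, and the combination has no total RNA point because that library was not read.

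In untreated cells every member was read in total RNA, which sets the baseline for the inhibitor. Oasl2 had 303 CPM in the DMSO library, Oas3 had 110, Oas2 94.7, Oasl1 76.8 and Oas1a 70.8. Oas1g had 34.0, Oas1b 24.98 and Oas1c 4.47 CPM. Per kilobase of exon (RPKM), Oasl2 was highest at 47.5 (95% counting interval 46.3 to 48.9), and Oas1a followed at 37.6, Oasl1 at 29.4 and Oas2 at 21.3, each with an interval apart from its neighbours. Oas3 at 15.6 RPKM (14.9 to 16.3) and Oas1g at 14.5 (13.4 to 15.8) overlapped, as did Oas1g and Oas1b at 12.5 (11.4 to 13.8), and Oas1c was lowest at 1.86. The 4 further Oas1 copies Oas1d, Oas1e, Oas1f and Oas1h, known mainly from the ovary and oocytes, had at most 5 counts in any of the 12 libraries, and Oas1h had none.

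With ADAR1i-124 alone, all 8 members were lower in total RNA. Oas2, which makes 2-5A as a dimer, was at 94.7 CPM with DMSO and at 0.114 CPM with ADAR1i-124, where it had 2 counts, a ratio of 834 (95% interval 231 to 6893). Oasl2 was at 303 and 1.59 CPM, which is 191-fold lower (132 to 287). Oas3, the long synthetase that binds long double-stranded RNA, was at 110 and 1.14 CPM, 97.1-fold lower (62.7 to 159). Oas1g was 74.9-fold lower (37.8 to 174, 579 and 8 counts), Oas1b was 73.3-fold lower (33.4 to 201, 425 and 6 counts) and Oas1a was 29.7-fold lower (21.8 to 41.4, 1205 and 42 counts). The intervals of Oas3, Oas1g and Oas1b overlapped, so these 3 cannot be ranked. Oasl1 was 14.2-fold lower (11.6 to 17.7), at 76.8 and 5.39 CPM, and kept the highest level of the family in this library. Oas1c, the weakest member, was 9.84-fold lower (4.75 to 23.6, 76 and 8 counts). On the log2 scale with 0.5 CPM added, the differences ran from -7.28 for Oas2 to -2.38 for Oas1c with a median of -5.05, whereas the median of the 13993 genes that averaged 1 CPM or more over the 12 libraries, called all genes from here on, was -0.09. Thus 8 of 8 members were at least 2-fold lower, against 8.61% of all genes, and none was at least 2-fold higher, against 7.36%. The total RNA library of ADAR1i-124 and that of DMSO had nearly the same depth, at 17617961 and 17015425 counts. The 8 leukocyte markers summed to 20.7 CPM with ADAR1i-124 and 8.58 CPM with DMSO and the 4 endothelial markers to 18.4 and 4.06 CPM, most of it from Cd68 and Cdh5, with 4 of the 8 leukocyte markers at 0 with ADAR1i-124. Their part in the result was not tested.

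5-AZA-CdR alone gave no such shift in total RNA. Oas2 was 2.01-fold higher (1.90 to 2.12) at 190 CPM and Oas3 was 1.62-fold higher (1.54 to 1.71) at 179 CPM. These neighbouring genes were the only members whose interval lay above 1. Oas1a (57.6 CPM), Oas1b (19.8 CPM) and Oasl1 (61.1 CPM) were 1.23-fold, 1.26-fold and 1.26-fold lower, with intervals that excluded 1. Oas1c (5.06 CPM), Oas1g (32.6 CPM) and Oasl2 (295 CPM) had intervals that included 1, although that of Oasl2 lay below 1 with TMM or DESeq2 factors. At the 2-fold line, 1 of 8 members was higher, against 16.1% of all genes, and 0 were lower, against 9.08%. The single member past the line was Oas2, with a log2 difference of 1.001, and it fell short of the line with edgeR's TMM factors, DESeq2's size factors or a pseudocount of 2 CPM. Cd68 and Cdh5 were also higher in this library, at 75.4 and 81.1 CPM against 8.29 and 3.70 with DMSO, while the pan-leukocyte marker Ptprc had 1.21 CPM. Their part in the OAS values was not tested.

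**Figure D2:**
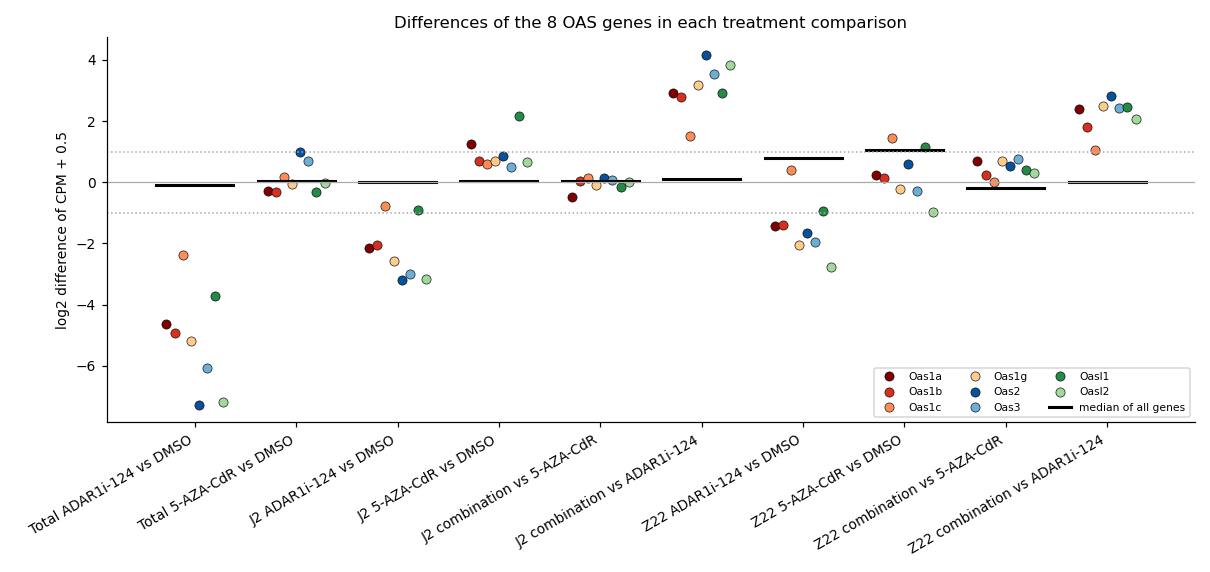
Difference in log2(CPM + 0.5) of each OAS gene (coloured points) in the 10 treatment comparisons, with the median of 13993 genes as a black bar and the 2-fold lines dotted. All 8 points lie below -2 for ADAR1i-124 in total RNA, and all 8 lie above 1 for the combination against ADAR1i-124 in both J2 and Z22.

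The J2 libraries asked whether double-stranded RNA from these genes moved with the treatment. Oas1a was at 76.3 CPM with DMSO, 16.7 with ADAR1i-124, 180 after 5-AZA-CdR and 128 after both. Its close copy Oas1g was at 55.6, 8.82, 89.6 and 84.7 CPM in the same order. For both genes the ADAR1i-124 library was the low one and the 2 libraries with 5-AZA-CdR were above DMSO. Oas1b was at 17.6, 3.89, 29.0 and 29.5 CPM and Oas1c at 3.69, 1.94, 5.87 and 6.54 CPM. Oas2 was at 91.1, 9.59, 165 and 181 CPM and Oas3 at 119, 14.5, 166 and 175 CPM. By library totals the order of the 4 treatments was the same for these 4 genes, lowest with ADAR1i-124 and highest with both drugs (5-AZA-CdR alone for Oas1b with TMM or DESeq2 factors), although the 2 libraries with 5-AZA-CdR differed beyond counting error for Oas2 alone, and for none of the 4 with TMM or DESeq2 factors. Oasl1 was at 39.4, 20.6, 177 and 161 CPM. Oasl2 was at 230, 25.2, 365 and 365 CPM. Oasl1 stood out by its 5-AZA-CdR level, which was 4.50-fold above DMSO (4.07 to 4.97), whereas in total RNA the same gene was 1.26-fold lower with 5-AZA-CdR.

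Against DMSO, ADAR1i-124 in J2 left Oas2 9.50-fold lower (7.96 to 11.4), Oasl2 9.13-fold lower (8.19 to 10.2) and Oas3 8.19-fold lower (7.08 to 9.51). Oas1g was 6.31-fold lower (5.21 to 7.69), Oas1a 4.57-fold (3.96 to 5.29) and Oas1b 4.52-fold (3.35 to 6.17). Oasl1 at 1.91-fold (1.65 to 2.21) and Oas1c at 1.90-fold (1.16 to 3.16) stayed inside the 2-fold line. So 6 of 8 members were at least 2-fold lower, against 10.9% of all genes, and 0 higher, against 7.22%, with a median of -2.38 for the members and -0.01 for all genes. The leukocyte markers were lower too, at 7.22 CPM in sum against 60.3 CPM with DMSO, as were the endothelial markers at 3.89 against 8.54 CPM, and their part in the result was not tested. With 5-AZA-CdR in J2, the members ran from 1.40-fold higher for Oas3 (1.31 to 1.50) to the value of Oasl1, and Oas1a was 2.36-fold higher (2.19 to 2.55). This placed 2 of 8 at least 2-fold higher, against 8.07% of all genes, and 0 at least 2-fold lower, against 5.78%. All 8 intervals lay above 1, the median was 0.69 and that of all genes 0.06. Of 13993 genes, 7547 were higher by any amount, and the share with an interval above 1 was not counted. The endothelial markers, almost all from Cdh5, summed to 62.5 CPM after 5-AZA-CdR in J2 and the leukocyte markers to 18.9 CPM, with 5 of the 8 at 0. Their part was not tested here either.

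In the Z22 libraries ADAR1i-124 was the lowest treatment for 7 of 8 members by library totals and for all 8 with TMM or DESeq2 factors. With totals without the 20 top genes it was again 7, since Oas1c was at 3.13 with DMSO and 3.27 with ADAR1i-124. The share of all genes with this order was not counted. Oas1a was at 66.6 CPM with DMSO, 24.1 with ADAR1i-124, 78.8 after 5-AZA-CdR and 128 after both. Oas1g was at 50.8, 12.003, 43.2 and 70.4 CPM. Oas1b was at 18.8, 6.75, 20.9 and 24.7 CPM. These 3 genes had their lowest level with ADAR1i-124, and by library totals their highest with both drugs, but with TMM or DESeq2 factors Oas1b and Oas1g were highest with DMSO. Oas2 was at 77.2, 23.9, 117 and 171 CPM. Oas3 was at 149, 37.8, 121 and 205 CPM. Oasl1 was at 87.5, 45.6, 194 and 254 CPM. Again ADAR1i-124 alone was lowest in these 3, and the combination was highest except for Oas3 with TMM or DESeq2 factors, where DMSO was. Oasl2 was at 482, 70.4, 244 and 298 CPM, so its DMSO level was the highest. Oas1c was at 1.72, 2.46, 5.51 and 5.58 CPM, and by library totals its DMSO value, from 15 counts, was the lowest. These differences in order concern the library in which Gm42418 took 34.9% of the counts.

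Z22 comparisons with DMSO carried a shift of the whole library. With ADAR1i-124 the median of all genes was 0.79 higher on the log2 scale with library totals, 0.21 with edgeR's TMM factors and 0.05 with DESeq2's size factors. The median of the members was -1.56 by totals, which is 2.35 below that of all genes, and it was 2.44 and 2.46 below with the other scalings. Oasl2 was 6.84-fold lower (6.39 to 7.33), Oas1g 4.23-fold (3.54 to 5.07), Oas3 3.94-fold (3.56 to 4.35) and Oas2 3.23-fold (2.83 to 3.68). Oas1b was 2.78-fold lower (2.16 to 3.61), Oas1a 2.76-fold (2.41 to 3.16) and Oasl1 1.92-fold (1.73 to 2.13). Oas1c was the exception at 1.43-fold higher (0.763 to 2.81), with an interval that included 1 and a log2 difference that turned from 0.41 to -0.14 and -0.30 with the TMM and DESeq2 scalings. By library totals 6 of 8 members were at least 2-fold lower, against 4.60% of all genes, and 0 higher, against 41.9%. With TMM factors 7 of 8 members were at least 2-fold lower and 0 higher, against 12.7% and 23.3% of all genes. The log2 differences of the members moved down with the scaling, that of Oasl1 from -0.93 to -1.61 with TMM and -1.79 with DESeq2 factors, and that of Oasl2 from -2.77 to -3.44 and -3.63. Relative to the median gene, all 8 members were lower under each of the 4 scalings. The leukocyte markers summed to 13.6 CPM with ADAR1i-124 and 15.8 CPM with DMSO in Z22, and the endothelial markers to 4.43 and 7.33 CPM.

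With 5-AZA-CdR in Z22 the direction of single members depended on that shift. The median of all genes was 1.06 higher by totals, 0.19 by TMM factors and 0.09 by DESeq2's size factors, and the members' median was 0.86, 0.95 and 0.96 below it. Oasl1 was 2.21-fold higher (2.03 to 2.42) and Oas1c 3.21-fold higher (1.75 to 6.19), while Oasl2 was 1.98-fold lower (1.87 to 2.08). Oas2, Oas1a and Oas1b had log2 differences of 0.60, 0.24 and 0.15 that became -0.36, -0.72 and -0.79 with TMM factors. The interval of Oas1c included 1 with TMM or DESeq2 factors, and that of Oasl1 with DESeq2 factors. By totals 2 of 8 members were at least 2-fold higher, against 52.3% of all genes, and 0 lower, against 3.84%. With TMM factors, 0 members were at least 2-fold higher, against 24.6% of all genes, and 3 were lower, against 15.7%. In the upward direction the members' share was below that of all genes under both scalings. The endothelial markers summed to 33.1 CPM after 5-AZA-CdR in Z22 and the leukocyte markers to 43.2 CPM, a shift whose part in these values was not tested.

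**Figure D3:**
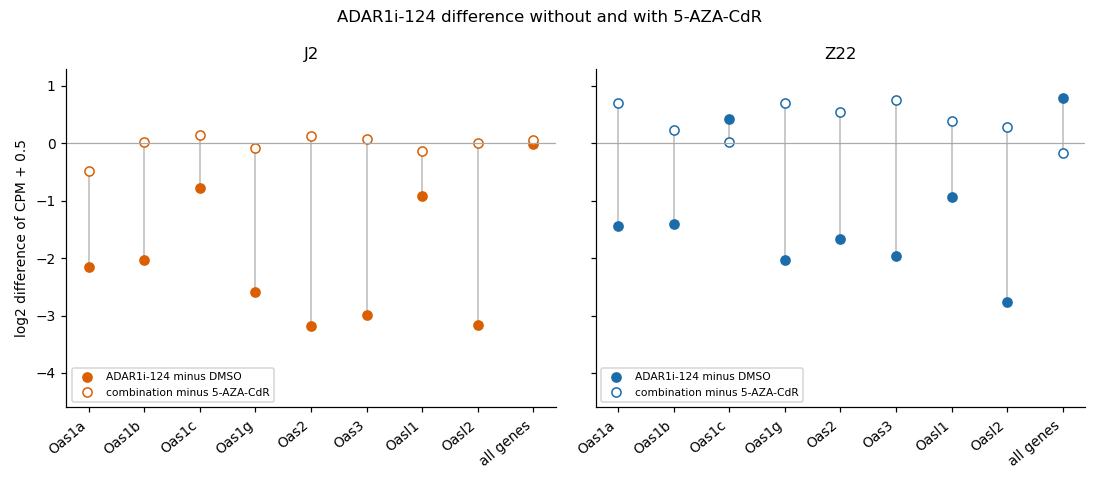
Difference in log2(CPM + 0.5) made by ADAR1i-124 without 5-AZA-CdR (filled) and on top of it (open), for each OAS gene and for the median of all genes, in J2 (left) and Z22 (right). By library totals, the open points of the 8 genes lie between -0.49 and 0.15 in J2 and between 0.02 and 0.76 in Z22, above the filled ones for every OAS gene except Oas1c in Z22, while the median of all genes in Z22 has its open point (-0.18) below its filled one (0.79).

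When ADAR1i-124 was given together with 5-AZA-CdR, the low levels of ADAR1i-124 alone were not seen. In J2 the combination stayed close to 5-AZA-CdR. Oas1a was 1.41-fold lower (1.32 to 1.50), Oasl1 1.10-fold lower (1.04 to 1.17) and Oas2 1.10-fold higher (1.03 to 1.16). The interval of Oas2 included 1 with TMM (0.988 to 1.11) and DESeq2 factors (0.991 to 1.12). By library totals the other 5 members had intervals that included 1, whereas those of Oas1g (TMM and DESeq2) and Oasl2 (TMM) then lay below 1, and the log2 difference of Oas1b changed sign, from 0.03 by library totals to -0.03 with TMM factors. Neither direction held a member past the 2-fold line, against 1.55% of all genes higher and 0.593% lower. Against ADAR1i-124 alone, the J2 combination was higher for 8 of 8 members by at least 2-fold, against 14% of all genes, and for none lower, against 5.51%. The ratios ran from 3.36 for Oas1c (2.16 to 5.39) and 7.58 for Oas1b (5.70 to 10.2) to 14.5 for Oasl2 (13.0 to 16.1) and 18.9 for Oas2 (15.9 to 22.6). Of all genes past the line in that comparison 71.8% were higher, and 62.2% with TMM factors. The endothelial markers were at 61.4 CPM with both drugs and 3.89 CPM with ADAR1i-124, and the leukocyte markers at 20.5 and 7.22 CPM, and their part was not tested.

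In Z22 the combination lay above both single drugs. Against 5-AZA-CdR, the combination was higher for Oas3 (1.70-fold, 1.57 to 1.83), Oas1a (1.63-fold, 1.48 to 1.80), Oas1g (1.63-fold, 1.43 to 1.86), Oas2 (1.46-fold, 1.34 to 1.58), Oasl1 (1.31-fold, 1.23 to 1.40) and Oasl2 (1.22-fold, 1.15 to 1.29). For Oas1b and Oas1c the interval included 1, but that of Oas1b lay above 1 under the other 3 scalings (1.14 to 1.71 with TMM factors). No member passed the 2-fold line in either direction, against 2.22% of all genes higher and 6.64% lower, but with TMM factors 1 member did, at shares of 3.68% and 4.07%. Against ADAR1i-124 alone, 8 of 8 members were at least 2-fold higher, against 9.50% of all genes, and none lower, against 6.32%. Oas2 had the largest ratio at 7.15 (6.37 to 8.05) and Oas1c the smallest at 2.27 (1.45 to 3.58). This comparison does not use the Z22 DMSO library, and the median of all genes in it was 0.00. Endothelial markers summed to 27.1 and 4.43 CPM and leukocyte markers to 56.4 and 13.6 CPM with both drugs and with ADAR1i-124, and their part was not tested. The treatment comparisons share libraries with one another, so their values are set side by side and were not correlated.

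Measured against IgG, the precipitates were above the control in some conditions only. The IgG library held 110 CPM of Oasl2, 85.5 of Oasl1, 62.2 of Oas1a, 45.9 of Oas3, 32.4 of Oas2, 23.6 of Oas1g, 12.4 of Oas1b and 4.05 of Oas1c. Relative to it, the members' median log2 difference in J2 was 0.77 with DMSO, 1.63 with 5-AZA-CdR and 1.47 with both drugs. With ADAR1i-124 it was -1.67, and all 8 members were below the control, against 49.7% of all genes. In Z22 the medians were 0.83, 1.001 and 1.49, and -0.74 with ADAR1i-124, where again all 8 were below IgG, against 51.6% of all genes. With DMSO, Oasl1 (-1.11) and Oas1c (-0.12) in J2 and Oas1c (-1.03) in Z22 were below IgG too. The median of all genes against IgG lay between -0.74 and 0.18, with the lowest value in the Z22 DMSO library. Since the treatment of the IgG cells was not stated, enrichment by the antibody and a different level of the transcript in those cells cannot be told apart.

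**Figure D4:**
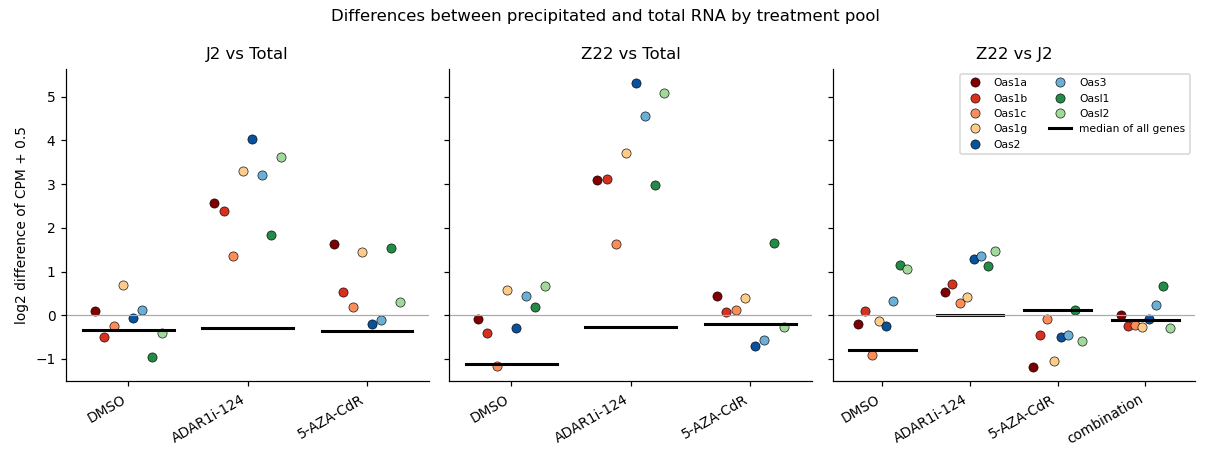
Difference in log2(CPM + 0.5) between J2 and total RNA, Z22 and total RNA, and Z22 and J2 for each OAS gene (coloured points) by treatment pool, with the median of all genes as a black bar. The ADAR1i-124 pool stands apart in both comparisons with total RNA, with members between 1.36 and 5.32.

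Precipitated and total RNA of the same treatment were then compared, to see whether the family took a larger part of the precipitates. With DMSO the members' log2 differences between J2 and total RNA ran from -0.95 for Oasl1 to 0.70 for Oas1g, and those between Z22 and total RNA from -1.16 for Oas1c to 0.67 for Oasl2. With ADAR1i-124 they ran from 1.36 to 4.04 in J2 and from 1.63 to 5.32 in Z22. Oas2 was 84.4-fold higher in J2 (22.9 to 704) and 211-fold higher in Z22 (57.9 to 1748) than in total RNA, on 2 counts in the latter. Oasl2 was 15.9-fold (10.8 to 24.2) and 44.3-fold (30.5 to 67.0) higher. All 8 members were at least 2-fold above total RNA in this pool, against 4.98% of all genes in J2 and 4.99% in Z22. The interferon-stimulated genes listed below had 11 of 12 in J2 and 12 of 12 in Z22 past that line. In the same pool all 8 members were below IgG in both precipitates, with median log2 differences of -1.67 in J2 and -0.74 in Z22. With 5-AZA-CdR, Oas1a (3.13-fold, 2.95 to 3.32), Oasl1 (2.90-fold, 2.73 to 3.08) and Oas1g (2.75-fold, 2.53 to 2.99) were higher in J2 than in total RNA, and in Z22 Oasl1 was 3.17-fold higher (2.97 to 3.39) while Oas2 was 1.62-fold lower (1.51 to 1.73).

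Over the pools as replicates, with the pool as a block in edgeR's quasi-likelihood test, 0 of 8 members passed an adjusted p of 0.05 in any of the 3 antibody contrasts. At an unadjusted p under 0.05, edgeR had 1 member between Z22 and J2, 2 between J2 and total RNA and 1 between Z22 and total RNA, and DESeq2 called 1, 2 and 3 after adjustment. Between J2 and total RNA (3 pools) Oas1g had a log2 difference of 1.87 ± 0.64 (SE, edgeR adjusted p = 0.201) and Oas1a of 1.48 ± 0.51 (edgeR adjusted p = 0.204), the largest of the family. The other 6 ran from 0.56 ± 0.56 for Oas1c to 1.03 ± 0.84 for Oasl2. Of 14142 genes tested, edgeR called 3 higher (0.0212%) and 0 lower (0%), with 2887 at an unadjusted p under 0.05, and DESeq2 called 322 and 110. Without the DMSO pool edgeR called 311 higher and 1441 lower, Oas1a, Oas1g and Oasl1 among the former. Between Z22 and total RNA (3 pools), Oasl1 led with 1.64 ± 0.65 (edgeR adjusted p = 0.429), and Oas1c had the smallest value at 0.31 ± 0.85. Of 14025 genes tested there, edgeR called 4 higher (0.0285%) and 0 lower (0%), with 1582 at an unadjusted p under 0.05, and DESeq2 called 259 and 61. Without the ADAR1i-124 pool, Oas2 turned from 1.02 to -0.13 in J2 against total RNA and from 0.99 to -0.49 in Z22 against total RNA, and Oas1c turned from 0.56 to -0.03 and from 0.31 to -0.61.

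Between Z22 and J2 (4 pools) Oasl1 had the largest difference of the family, 0.77 ± 0.25 (95% interval 0.20 to 1.34, edgeR adjusted p = 0.352), and was higher in Z22 in 4 of 4 pools. The other 7 had intervals that included 0, from -0.26 ± 0.28 for Oas1g (-0.92 to 0.40) to 0.41 ± 0.38 for Oasl2 (-0.48 to 1.31). Of 13898 genes tested, edgeR called 0 (0%) in either direction, with 1602 at an unadjusted p under 0.05, and DESeq2 called 642 higher and 273 lower, Oasl1 among the former with a DESeq2 adjusted p of 0.0372. Without the DMSO pool edgeR called 413 genes higher and 131 lower, and no member. The pools also differed among themselves: with ADAR1i-124 all 8 members were higher in Z22 than in J2 (0.27 to 1.46), against 50.3% of all genes, whereas with 5-AZA-CdR 7 of 8 were lower (-1.19 to -0.08), against 40.9% of all genes, and Oasl1 was 0.13 higher.

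**Figure D5:**
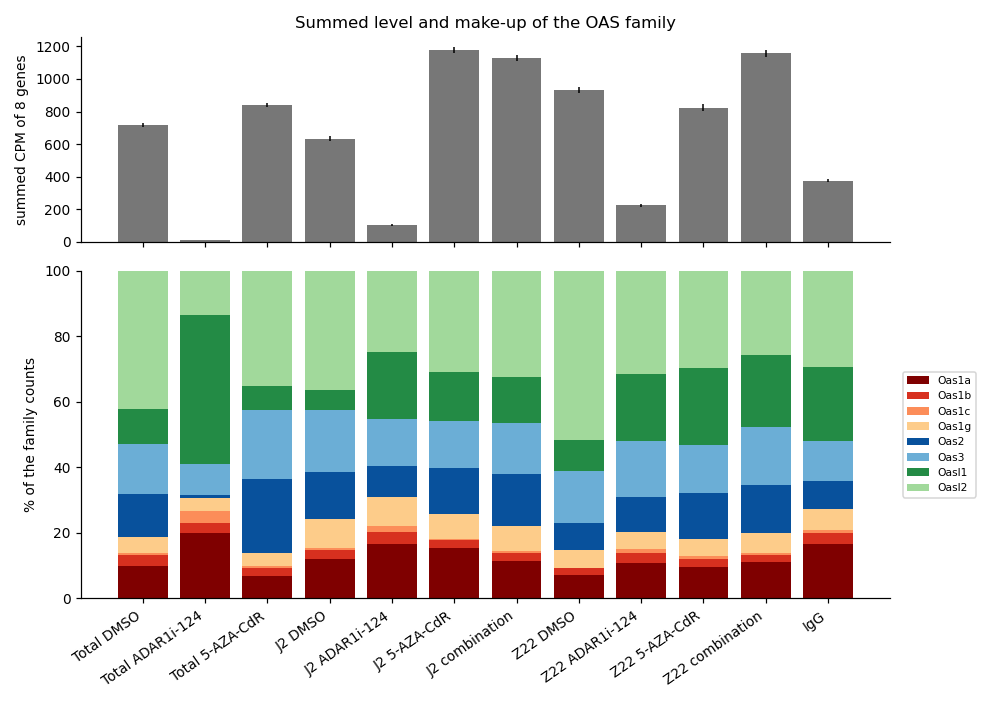
Summed CPM of the 8 OAS genes with a 95% Wilson counting interval (top) and the percentage of the summed counts from each gene (bottom) in the 12 libraries. The sum is 11.9 CPM in total RNA with ADAR1i-124, between 101.3 and 223 CPM in its precipitates, and between 376 and 1178 CPM elsewhere.

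Summed over the 8 genes, the family had 719 CPM (706 to 732) in total RNA with DMSO, 11.9 CPM (10.4 to 13.6) with ADAR1i-124 and 840 CPM (831 to 850) with 5-AZA-CdR. In J2 the sums were 633, 101.3, 1178 and 1130 CPM in the order DMSO, ADAR1i-124, 5-AZA-CdR, combination, and in Z22 933, 223, 824 and 1157 CPM. IgG held 376 CPM (367 to 386). The make-up of the family differed between libraries. Oasl2 gave 42.1% of the family counts (41.3% to 43.0%) in total RNA with DMSO and 13.4% (9.43% to 18.7%) with ADAR1i-124. Oasl1, the member without synthetase activity, gave 10.7% (10.1% to 11.2%) and 45.5% (38.8% to 52.2%). Oas2 gave 13.2% (12.6% to 13.8%) and 0.957% (0.263% to 3.42%). In the precipitates with ADAR1i-124 the share of Oasl1 was 20.4% in both J2 and Z22, against 6.23% and 9.38% with DMSO, and it was 23.5% with 5-AZA-CdR and 21.96% with both drugs in Z22 and 22.7% in IgG. The share of Oas2 went from 14.4% with DMSO to 9.47% with ADAR1i-124 in J2 and from 8.27% to 10.7% in Z22, the latter opposite to its direction in total RNA. Per length, the top of the family also depended on the library: Oas1a led in J2 with 5-AZA-CdR at 95.6 RPKM, and Oasl1 led in Z22 with both drugs at 97.4 RPKM.

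The 4 genes listed for enzymes that act around 2-5A were split in total RNA with ADAR1i-124, where 2 were higher and 2 lower. Of 13993 genes, 6106 were higher and 7840 lower there. At the 2-fold line 2 of the 4 were lower, against 8.61% of all genes, and 0 higher, against 7.36%. In Z22 with ADAR1i-124 all 4 were higher by library totals (10879 of 13993 genes), 3 of them by at least 2-fold (41.9% of all genes), with a median of 1.81 beside 0.79 for all genes. Akap7, which belongs to a phosphodiesterase family with members that degrade 2-5A, was 2.23-fold lower with ADAR1i-124 in total RNA (1.82 to 2.74) and 1.34-fold higher in J2 (1.06 to 1.69). Pde12, a mitochondrial phosphodiesterase that degrades 2-5A, was 1.603-fold higher in total RNA (1.44 to 1.79), and Abce1, a ribosome recycling factor, was 1.07-fold higher (1.04 to 1.11).

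Among genes of interferon signalling, Ifnb1, the interferon gene itself, had at most 8 counts in a library. With ADAR1i-124 in total RNA, the transcription factor genes Irf7, Stat2, Irf9 and Irf1 were 98.2-fold (59.3 to 176), 16.2-fold (14.1 to 18.8), 8.57-fold (7.33 to 10.1) and 3.61-fold lower (3.11 to 4.199). The receptor genes Ifnar1 (1.05 to 1.22) and Ifnar2 (0.958 to 1.33) were each 1.13-fold higher, and the interval of Ifnar2 included 1. Of 12 other interferon-stimulated genes, 12 were at least 2-fold lower in total RNA and 12 in J2 with ADAR1i-124, and 5 in Z22, against 8.61%, 10.9% and 4.60% of all genes. Their medians were -4.74, -2.89 and -0.76, beside -0.09, -0.01 and 0.79 for all genes. Isg15, the ubiquitin-like modifier, was 80.3-fold lower in total RNA (62.7 to 105), and Zbp1, the sensor of Z-form RNA, was 36.8-fold lower (20.9 to 71.9). With both drugs against ADAR1i-124 alone, all 12 were at least 2-fold higher in J2 and 11 in Z22, against 14% and 9.50% of all genes, with medians of 3.60 and 1.76 beside 0.11 and 0.00 for all genes. The OAS genes had medians of 3.06 and 2.40 there.

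The genes most like each member were found by the correlation of log2(CPM + 0.5) over the 12 libraries. These correlations are a description over 12 libraries that share treatments and depth. Every member was lowest in total RNA with ADAR1i-124, and the weight of that library in r was not tested. Oas2 and Oas3 were closest to each other (Pearson r = 0.994, Spearman rho = 0.930), and Oas1a and Oas1g had r = 0.988 (rho = 0.951), which share exon sequence. Oas1b was nearest to Xaf1 (r = 0.996, rho = 0.986), Oasl2 to Sp100 (r = 0.995, rho = 0.902), Oas1g to Gbp3 (r = 0.991, rho = 0.944) and Oas1c to Ddx60 (r = 0.974, rho = 0.965). Oasl1 had the lowest best match, with Ifih1 at r = 0.941 (rho = 0.846), followed by Psmb10 and Parp14. Further matches were Ifi35 and Apol9b for Oas1a, Dhx58 and Irf9 for Oas1b, Gm7609 and Tgtp2 for Oas1c, Apol9b for Oas1g, Gbp9 and Xaf1 for Oas2, Sp100 for Oas3, and Gbp7 for Oasl2. Over all these matches, ranked by r, rho ran from 0.755 for Oas3 with Oasl2 to 0.993 for Oas2 with Gbp9. Between members r ran from 0.823 for Oas1c with Oasl2 to 0.994.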

How the data were processed

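Total RNA libraries were prepared after ribosomal depletion, and J2, Z22 and IgG libraries from precipitated RNA. Alignment was done by the authors on GRCm38 (STAR, run through snakePipes 2.8.0), who used GENCODE annotation and deposited raw read counts per gene in 1 table. The counting tool and its strand setting are not given in the sources used here, so overlapping and antisense genes cannot be told apart.

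From these counts CPM were computed by library total, with exact Poisson intervals, and RPKM by union exon length in GENCODE. Of the identifiers, 54409 matched a symbol and 123 did not. The members and lists were chosen with earlier results of these data known. Some listed genes are not reported here. The genes named are all members and the other list genes, at most 4 of the other interferon-stimulated genes, and the 3 genes most correlated with each member. Treatment differences are differences of log2(CPM + 0.5), while folds with intervals are ratios of CPM without that pseudocount, with Clopper-Pearson intervals. Counts of genes past the 2-fold line used genes that averaged 1 CPM or more. The reads carry no molecular identifiers and may repeat a molecule, so these intervals cover counting error only.

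Antibody contrasts used edgeR 4.0.16 (quasi-likelihood, Benjamini-Hochberg adjusted, treatment pool as a block, library totals), with DESeq2 1.42.0 as an alternative, in R 4.3.3. The edgeR fit was also run on simulated counts whose pools did not differ by treatment. That run cannot show how the fit behaves where the antibody difference varies between treatments, as it does here. The SE is the log2 difference divided by the root of F. Differently treated pools served as replicates, so p-values measure the spread of the antibody difference over treatments. Only 1 library per antibody and treatment was read here. Pairing comes from the shared treatment, since no label ties libraries to the same RNA: deviations of J2 and Z22 from their means correlated at 0.463 (DMSO), 0.786 (ADAR1i-124), 0.429 (5-AZA-CdR, which correlated at 0.604 with another pool) and 0.670 (combination). Tables and plots used Python 3.11.15, numpy 2.4.6, pandas 2.3.3, scipy 1.17.1 and matplotlib 3.10.9. Alternatives were other scalings, pseudocounts, filters, the fit without block and each pool left out.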

Additional observations from a re-analysis of the deposited data

Results flagged for a closer look

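For 3 members the values with ADAR1i-124 were lower than without it in the absence of 5-AZA-CdR and nominally higher in its presence, in both precipitates. The difference was not tested, since each condition had 1 library. On the log2 scale by library totals, the change with 5-AZA-CdR exceeded that without it by 2.07 in J2 and 1.65 in Z22 for Oas1b, by 3.31 and 2.21 for Oas2, and by 3.06 and 2.72 for Oas3. The median of all genes in the same difference was 0.06 in J2 and -0.996 in Z22, where DMSO is the library with the shift, and with TMM factors the Z22 differences were 2.55, 3.13 and 3.64 beside a median of -0.19. By library totals the changes with 5-AZA-CdR passed counting error in both precipitates for Oas2 alone, and for none of the 3 with TMM or DESeq2 factors, since the J2 interval of Oas2 then included no difference. In J2 they were 0.03 for Oas1b and 0.07 for Oas3, with counting intervals that included no difference, and that of Oas1b turned to -0.03 with TMM factors. The interval of Oas1b in Z22 included no difference by library totals but not under the other 3 scalings. By library totals the other members differed by 3.17 in J2 and 3.05 in Z22 (Oasl2), 2.51 and 2.73 (Oas1g), 1.67 and 2.15 (Oas1a), 0.78 and 1.32 (Oasl1), and 0.92 and -0.40 (Oas1c). Oasl2 and Oas1g were left out by J2 changes of -0.0003 and -0.08 with 5-AZA-CdR. The share of all genes with this sign pattern was not counted.

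In the total RNA library of the combination, which entered no comparison, Oas1h had 115 counts of 1245894, whereas it had 0 in each of the other 12 libraries. The counts of that library follow the other strand, so a level of Oas1h cannot be read from them.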

How the results depend on the processing

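Of the summary results, 139 values stayed within 1.5 times of the reported one or within its error and 15 moved. The number of members at least 2-fold higher with 5-AZA-CdR in total RNA went from 1 to 0 with TMM factors, DESeq2 size factors or a pseudocount of 2 CPM. In Z22 with 5-AZA-CdR, 2 higher and 0 lower became 0 and 3 with TMM or DESeq2 factors, and 1 and 1 with totals without the 20 top genes, and the combination against 5-AZA-CdR went from 0 to 1 higher with TMM factors. The cause was not tested. Members called went from 0 to 1 (Z22 against J2), 2 (J2 against total RNA) and 3 (Z22 against total RNA) with DESeq2, and to 2 without the filter in J2 against total RNA, where leaving out a pool gave 0 to 3, with 3 without the DMSO pool. Of all genes, DESeq2 called 642 higher and 273 lower of 13898, 322 and 110 of 14142, and 259 and 61 of 14025. In J2 against total RNA, edgeR called 220 higher and 834 lower of 31776 without the filter. There it called 311 and 1441 of 14209 without the DMSO pool, and 6 and 0 without either other pool.

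Without the replicate block no member was called, and edgeR called 0 genes in each contrast. The directions that turned in that fit were Oas1b (-0.17) and Oas2 (-0.20) for Z22 against J2, Oas2 (-0.10) for J2 against total RNA, and Oas1c (-0.052) and Oas2 (-0.38) for Z22 against total RNA. With DESeq2, Oas1a turned to 0.0042 for Z22 against J2. Over the fits that left out 1 pool, the values for Z22 against J2 ran from -0.46 to 0.11 for Oas1a, -0.21 to 0.20 for Oas1b, -0.48 to 0.0080 for Oas1g and -0.27 to 0.31 for Oas2. For J2 against total RNA they ran from -0.027 to 0.95 for Oas1c, -0.13 to 2.19 for Oas2 and -0.045 to 1.88 for Oasl2. For Z22 against total RNA they ran from -0.16 to 1.73 for Oas1b, -0.61 to 1.09 for Oas1c, -0.49 to 3.06 for Oas2 and -0.066 to 2.66 for Oas3. The lowest value of each of these members in the contrasts with total RNA came without the ADAR1i-124 pool.

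Depth limits Oas2, Oas1b, Oas1c and Oas1g in total RNA with ADAR1i-124, at 2 to 8 counts each. A single library per condition and an IgG library of unstated treatment leave treatment and library differences that cannot be told apart.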
